A study of Mus musculus with 6 samples.

Results

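Receptors for neurotrophic factors were examined in embryoid bodies containing spinal motor neurons, the indicator cells of an assay that reads the response of cultured cells to blood. The 9 genes were chosen by name as receptors or receptor subunits through which motor neurons bind trophic factors, namely Ntrk2, Ntrk3, Ngfr, Ret, Gfra1, Gfra2, Lifr, Cntfr and Met. All 9 were found among the 19613 genes of the expression table. The embryoid bodies came from mouse embryonic stem cells that the labels name HBG3 and the methods HGB3, which carry a fluorescent reporter for HB9 (Mnx1), a gene of motor neurons, and had been induced with retinoic acid and a hedgehog agonist. They were assayed as whole aggregates, in which motor neurons are only a part of the cells. The cells of all 6 arrays had received blood fluid from carriers of the Huntington's disease strain B6CBA-Tg(HDexon1)62Gpb/3J, which express the first exon of human huntingtin. The labels name the fluid plasma and the methods name it serum, from males at 10 weeks of age, and in the assay the methods describe serum was added at 5% for 24 h. The labels form a single group, numbered as replicates 2, 4, 5, 6, 7 and 8. No control arrays were analysed here, so the values describe receptor levels under this serum and not a response to it. Nothing in the labels says which replicates came from separate cultures or mice, so the errors measure only the spread between these arrays.

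Trophic factors keep developing neurons alive and guide the growth of their axons. Neurotrophins bind the Trk receptor tyrosine kinases and the shared receptor p75, whereas ligands of the GDNF family first bind a lipid-anchored GFRα subunit, which then engages the kinase Ret. The cytokines CNTF and LIF act through the signalling subunits LIFR and gp130, with CNTF needing in addition the anchored subunit CNTFRα, and hepatocyte growth factor acts through the kinase Met. Spinal motor neurons are classical targets of all these ligand families, and pools of motor neurons that serve different muscles differ in the receptors they carry.

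All 9 receptor genes lay above the background set by olfactory receptor genes, which are silent in most tissues outside the nose. Cntfr and Ngfr were far above it, Gfra1, Ntrk3, Ntrk2, Ret and Lifr lay at an intermediate margin, and Gfra2 and Met were barely above it. Background in each array was the 95th percentile of the log2 intensities of 1032 olfactory receptor genes, and the margin of a gene is its log2 intensity minus that level. Each of the 54 values of the 9 genes over 6 arrays was above the background of its own array. By limma, with Benjamini-Hochberg adjustment over all genes, 9 of 9 receptors were above background, where 62.9% of all genes were called above it by the same rule, and by mean level alone the counts were 9 of 9 and 65.2%. Against the 99th percentile of olfactory receptor genes, a stricter level that 43.8% of all genes passed, 7 of the 9 were above in all 6 arrays and Gfra2 and Met were above it in 0 of 6. The median margin of the 9 receptors was 1.99, against 0.77 over all genes. Since probe affinity is not the same for every gene, these margins order intensities and not numbers of transcripts.

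**Figure D1:**
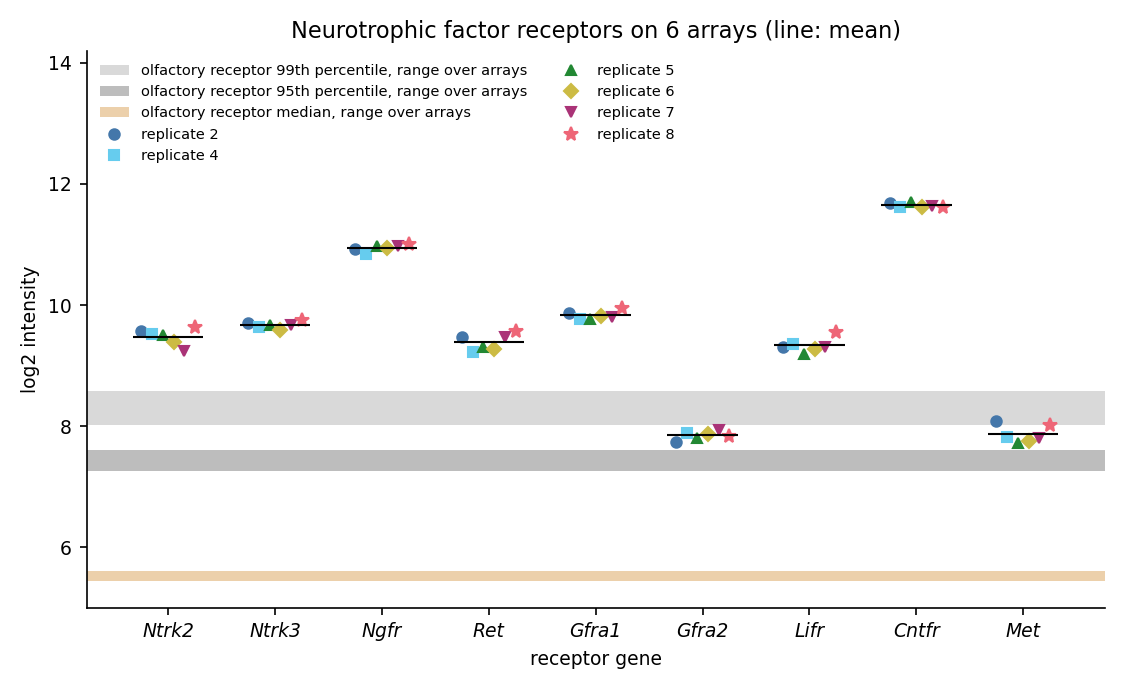
Log2 intensity (vertical axis) of the 9 receptor genes (horizontal axis) in each of the 6 arrays (symbols, replicate 8 as a star), with the mean as a line and grey and tan bands for the range over arrays of the 95th percentile, 99th percentile and median of olfactory receptor genes. Cntfr and Ngfr stand highest at means of 11.65 and 10.95, while Gfra2 and Met lie between the 95th and 99th percentile bands.

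The arrays were alike in scale, with median log2 intensities of 8.21 to 8.28, but their background differed. The 95th percentile of olfactory receptor genes was 7.26 in replicate 8 and between 7.42 and 7.60 in the other arrays. Replicate 8 was also the highest array for 27.5% and the lowest for 26.4% of the genes above background by mean, more than any other array. Every receptor had its largest margin in replicate 8, also those with their highest intensity in another array. The lower background of replicate 8 raises the margin of every gene there, and whether the receptors differ from other genes in this was not tested. The share of all genes with their largest margin there was not counted. Results were also taken without this array, and all 9 receptors were then still above background. Markers of motor neurons (7 of 7 matched genes) and of their progenitors (5 of 6) were above background, where 62.9% of all genes were. Among them was Chat, the enzyme of acetylcholine synthesis, at 9.42 ± 0.097 (log2 intensity, SD, n = 6). Mnx1 had a margin of 0.99 and was above the 99th percentile of olfactory receptor genes in 4 of 6 arrays. The progenitor marker Pax6 was below background at -0.60. The same rule also called markers of other cells, namely 5 of 6 for sensory neurons, 3 of 6 for neural crest and Schwann cells, 2 of 4 for astroglia, 4 of 5 for mesenchyme, 3 of 7 for epithelium and endoderm, 2 of 6 for pluripotent cells and 1 of 4 for blood. In these mixed aggregates, receptors in fewer cells cannot be told apart from less receptor RNA per cell, and which cells carried each receptor was not tested.

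Promoter sequence in RefSeq (GRCm38.p6) was available here for 6 of the receptors, namely Ntrk2, Ngfr, Gfra1, Lifr, Cntfr and Met. The 250 bases before the transcription start are shown for Ngfr and Met, the receptors with the highest and the lowest margin among the 4 with a single annotated start, to set the regulatory sequence of a receptor far above background beside that of one near it. Capitals mark CG dinucleotides. Both windows are rich in G and C, at 70.4% for Ngfr (chr11:95587699-95587948, minus strand) and 74.0% for Met (chr6:17463707-17463956, plus strand), against a median of 52.4% over 32851 windows of the same length.
Ngfr: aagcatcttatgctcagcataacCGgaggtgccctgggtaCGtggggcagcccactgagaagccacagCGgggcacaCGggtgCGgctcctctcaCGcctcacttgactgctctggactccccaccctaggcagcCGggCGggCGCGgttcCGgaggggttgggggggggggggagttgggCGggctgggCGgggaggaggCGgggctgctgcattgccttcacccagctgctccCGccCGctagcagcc
Met: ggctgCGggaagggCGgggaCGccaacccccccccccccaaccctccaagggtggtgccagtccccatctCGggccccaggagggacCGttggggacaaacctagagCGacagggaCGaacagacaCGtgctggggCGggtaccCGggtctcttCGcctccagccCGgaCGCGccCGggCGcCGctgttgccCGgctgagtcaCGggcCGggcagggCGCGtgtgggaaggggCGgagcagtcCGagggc
The Ngfr window held 16 CG dinucleotides and that of Met held 24, more than 74.6% and 88.0% of all windows, where the median was 6. The GC box GGGCGG, read on both strands, was found 4 times in the window of Ngfr and 3 times in that of Met, and 32.7% of all windows held at least 1. Over the 12 windows of the 6 receptors, 10 had more CG dinucleotides than the median, as did 46.3% of all windows. Cntfr alone gave 6 of the 12, most of which overlap, so the windows are not separate observations. The number of CG dinucleotides ran from 3, in a window each of Cntfr and Lifr, to 43 in the other window of Lifr. The receptor nearer to background thus had the window with more CG dinucleotides, and these letters are a description of the windows only.

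Among the neurotrophin receptors, Ngfr encodes p75, which binds all neurotrophins. Its log2 intensity was 10.84 in the lowest array (replicate 4), 10.96 at the median and 11.01 in the highest (replicate 8), with a mean of 10.95 ± 0.059 (SD, n = 6). The arrays differed by 1.12-fold, the SD was 0.036 without replicate 4, and 0 of the 1032 olfactory receptor genes had a higher mean. The margin of Ngfr was 3.46 (95% interval 3.32 to 3.60), or 11.0-fold over background (limma adjusted p = 8.21e-15). Ntrk3 encodes TrkC, the kinase that binds NT-3, and its log2 intensity ran from 9.58 in replicate 6 through a median of 9.67 to 9.76 in replicate 8. Its margin was 2.18 (95% interval 2.03 to 2.33), or 4.54-fold (limma adjusted p = 1.09e-12). Ntrk2 encodes TrkB, the receptor of BDNF and NT-4, and varied more, from 9.24 in replicate 7 through a median of 9.52 to 9.64 in replicate 8. Its margin was 1.99 (95% interval 1.81 to 2.17), or 3.98-fold (limma adjusted p = 1.94e-11). Replicates 6 and 7 were the lowest arrays for Ntrk2, and without replicate 7 its SD of 0.144 was 0.095. Ntrk2 and Ntrk3 each also give rise to truncated forms without the kinase domain, and the deposited value is a mean over all exons of a gene, so kinase and truncated forms are not separated.

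Of the GDNF receptors, Gfra1 encodes the subunit that binds GDNF itself. Its log2 intensity was 9.77 in the lowest array (replicate 5), 9.81 at the median and 9.94 in the highest (replicate 8), with a margin of 2.34 (95% interval 2.19 to 2.50), or 5.07-fold over background (limma adjusted p = 7.57e-13). Without replicate 8 its SD of 0.068 was 0.044. Ret, the kinase shared by the whole family, ranged from 9.22 in replicate 4 through a median of 9.39 to 9.58 in replicate 8. Its margin was 1.90 (95% interval 1.73 to 2.07), or 3.73-fold (limma adjusted p = 1.64e-11). The values of Ret formed a higher trio in replicates 2, 7 and 8 and a lower trio in replicates 4, 5 and 6, with the highest array exceeding the lowest by 1.28-fold. Gfra2 encodes the subunit preferred by neurturin and lay just above background, from 7.75 in replicate 2 through a median of 7.86 to 7.93 in replicate 7. Its margin was 0.36 (95% interval 0.25 to 0.47), or 1.28-fold (limma adjusted p = 1.57e-05), and 22 of the olfactory receptor genes had a higher mean. Its smallest margin in any array was 0.21, in replicate 5.

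The highest receptor gene of all was Cntfr, which encodes the anchored subunit that binds CNTF. It was also the steadiest, from 11.62 in replicate 6 through a median of 11.63 to 11.71 in replicate 5, with a mean of 11.65 ± 0.039 (SD, n = 6). No olfactory receptor mean reached this level, which exceeded 97.8% of all genes. The margin of Cntfr was 4.16 (95% interval 4.03 to 4.29), or 17.9-fold (limma adjusted p = 9.15e-16). Lifr encodes the signalling subunit shared by LIF and CNTF and ranged from 9.20 in replicate 5 through a median of 9.31 to 9.56 in replicate 8. Its margin was 1.85 (95% interval 1.67 to 2.02), or 3.60-fold (limma adjusted p = 3.48e-11). The spread of Lifr came mostly from 1 array, as replicate 8 was set apart from the rest, and without it the SD of 0.122 was 0.060. LIF was a component of the medium in which the stem cells were kept before differentiation, per the methods.

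Met, the receptor of hepatocyte growth factor, was the other gene near background. Its log2 intensity was 7.72 in the lowest array (replicate 5), 7.82 at the median and 8.08 in the highest (replicate 2). The margin was 0.38 (95% interval 0.21 to 0.55), or 1.30-fold (limma adjusted p = 0.000329), with 21 olfactory receptor means above it and a smallest margin of 0.12 in replicate 5. Replicates 2 and 8 were both above 8.0 and the other 4 arrays below 7.83. The ranges of Met and Gfra2 over the arrays overlapped, as did those of Ntrk3 and Ntrk2, of Ntrk2 and Ret and of Ret and Lifr. In contrast, Cntfr did not overlap Ngfr, Ngfr did not overlap Gfra1, Gfra1 did not overlap Ntrk3 and Lifr did not overlap Met.

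**Figure D2:**
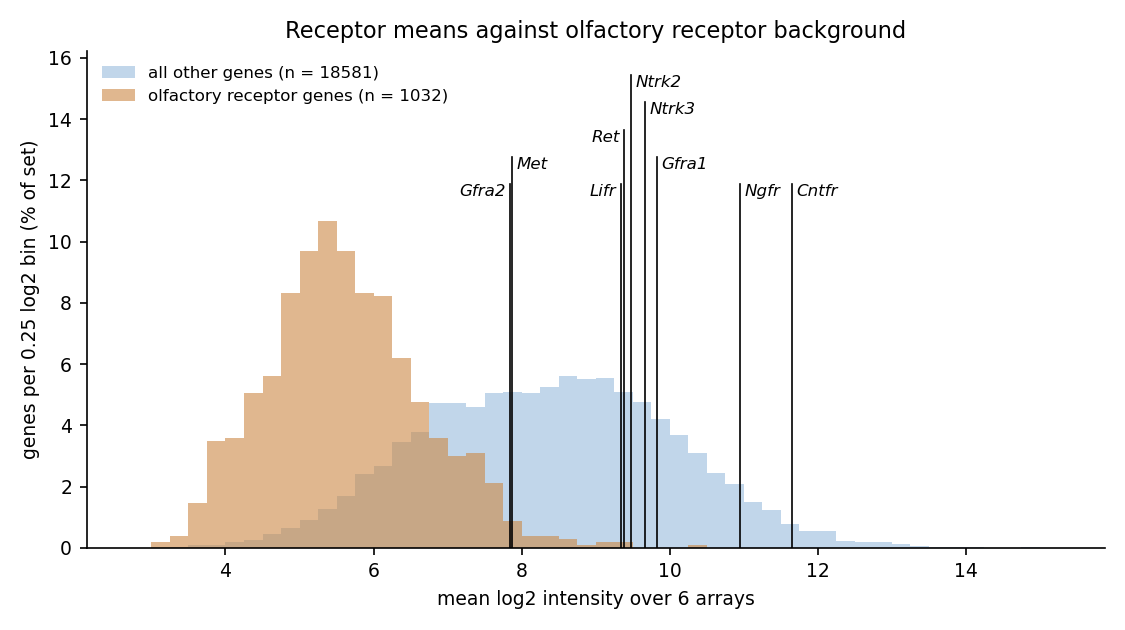
Distribution of the mean log2 intensity over 6 arrays (horizontal axis) for 1032 olfactory receptor genes (tan) and all other genes (blue), as percent of each set per bin (vertical axis), with the 9 receptor genes as vertical lines. Gfra2 and Met stand in the upper tail of the olfactory receptor genes and the other 7 lie beyond nearly all of them.

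Margins as small as those of Gfra2 and Met were also found for some genes known mainly from other tissues. Scn10a, a sodium channel of pain-sensing neurons, had a margin of 0.42 (95% interval 0.33 to 0.50), and Hgfac, a protease made mainly by liver, had 0.42 (95% interval 0.27 to 0.56). In contrast, the pain neuron channel gene Trpv1 was below background at -0.75, as were Alb, Ttr and Afp, genes of liver and endoderm, at -0.27, -0.24 and -1.42. Other genes of these marker lists lay higher, with margins of 1.68 for Runx1, 1.47 for Pou4f1 and 1.16 for Neurog1 among sensory markers. Cdh1 and Krt8, of epithelium and endoderm, had 1.72 and 1.29. In all, 5 of 6 sensory markers and 3 of 7 of epithelium and endoderm were above background, where 62.9% of all genes were. Scn10a and Hgfac were picked after their values were seen, and whether these aggregates transcribe them was not tested. Among the olfactory receptor genes themselves, 34 or 3.29% were called above background by the same test. Whether signal other than from their own transcripts entered the values of Gfra2 and Met was not tested.

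Partner subunits were taken from lists drawn up by role, with earlier results of these data known. Of the 9 matched neurotrophin partners, 9 were above background, where 62.9% of all genes were, with a median margin of 1.73. Sort1 encodes sortilin, the partner of p75 in binding pro-neurotrophins, and its margin was 3.32 (95% interval 3.18 to 3.47). Islr2, also known as Linx, associates with Trk and Ret kinases and had a margin of 3.82 (95% interval 3.68 to 3.96).

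For the GDNF family, 4 of 5 partners were above background. Counts of partners in this paragraph are read beside the 62.9% of all genes above background. Ncam1, an adhesion molecule that can serve as a GDNF receptor without Ret, was at 12.10 ± 0.043 (log2 intensity, SD, n = 6) with a margin of 4.61, and Sdc3, a heparan sulfate proteoglycan that binds GDNF, had a margin of 2.77. The subunits of other ligands were lower, with margins of 0.82 for Gfra4 and 0.17 for Gfra3, and Gfral, the hindbrain receptor of GDF15, was below background at -1.67. Among the GFRα genes, therefore, Gfra1 alone was above the 99th percentile of olfactory receptor genes in 6 of 6 arrays, with Gfra4 above it in 3. Of the 3 matched partners in the CNTF and LIF group, Il6st, which encodes gp130, had a margin of 2.92 (95% interval 2.77 to 3.07), Il11ra1 had 0.38, and Osmr, the oncostatin M receptor, was below background at -1.41. All subunits of the CNTF receptor complex, Cntfr, Lifr and Il6st, were hence above the 99th percentile in 6 of 6 arrays. Partners of Met were above background in 3 of 4 cases, with margins of 2.72 for Plxnb1, 2.63 for Nrp1 and 1.75 for Cd44. The related kinase Mst1r was below background at -0.15.

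The median margins of the ligand lists ran from -0.42 for the CNTF and LIF group to 0.22 for hepatocyte growth factor and its activators. Among the neurotrophins, 2 of 4 were above background, and counts of ligands are read beside the 62.9% of all genes above it. Ntf3, the gene of NT-3, ranged from 8.63 in replicate 5 to 9.34 in replicate 2 with a margin of 1.41 (95% interval 1.21 to 1.62), while Bdnf had a margin of 0.375 (95% interval 0.28 to 0.47). Ntf5, the gene of NT-4, was below background at -0.17. Of the 5 ligands listed for Ret and the GFRα subunits, Nrtn, the gene of neurturin, had a margin of 1.66 (95% interval 1.56 to 1.77). Gdnf had 0.37 (95% interval 0.23 to 0.51), whereas Artn, Pspn and Gdf15 lay below background. Neurturin was thus the ligand of this list with the largest margin, and Gfra2, its preferred subunit, was near background. In the CNTF and LIF group 2 of 7 matched ligands were above background, among them Ctf1, the gene of cardiotrophin, at 0.58. Clcf1, which encodes another ligand of the CNTF receptor, was below background at -0.29, as was Lif at -1.56. Hgf, the ligand of Met, was below background at -1.59 with 0 of 6 arrays above it.

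**Figure D3:**
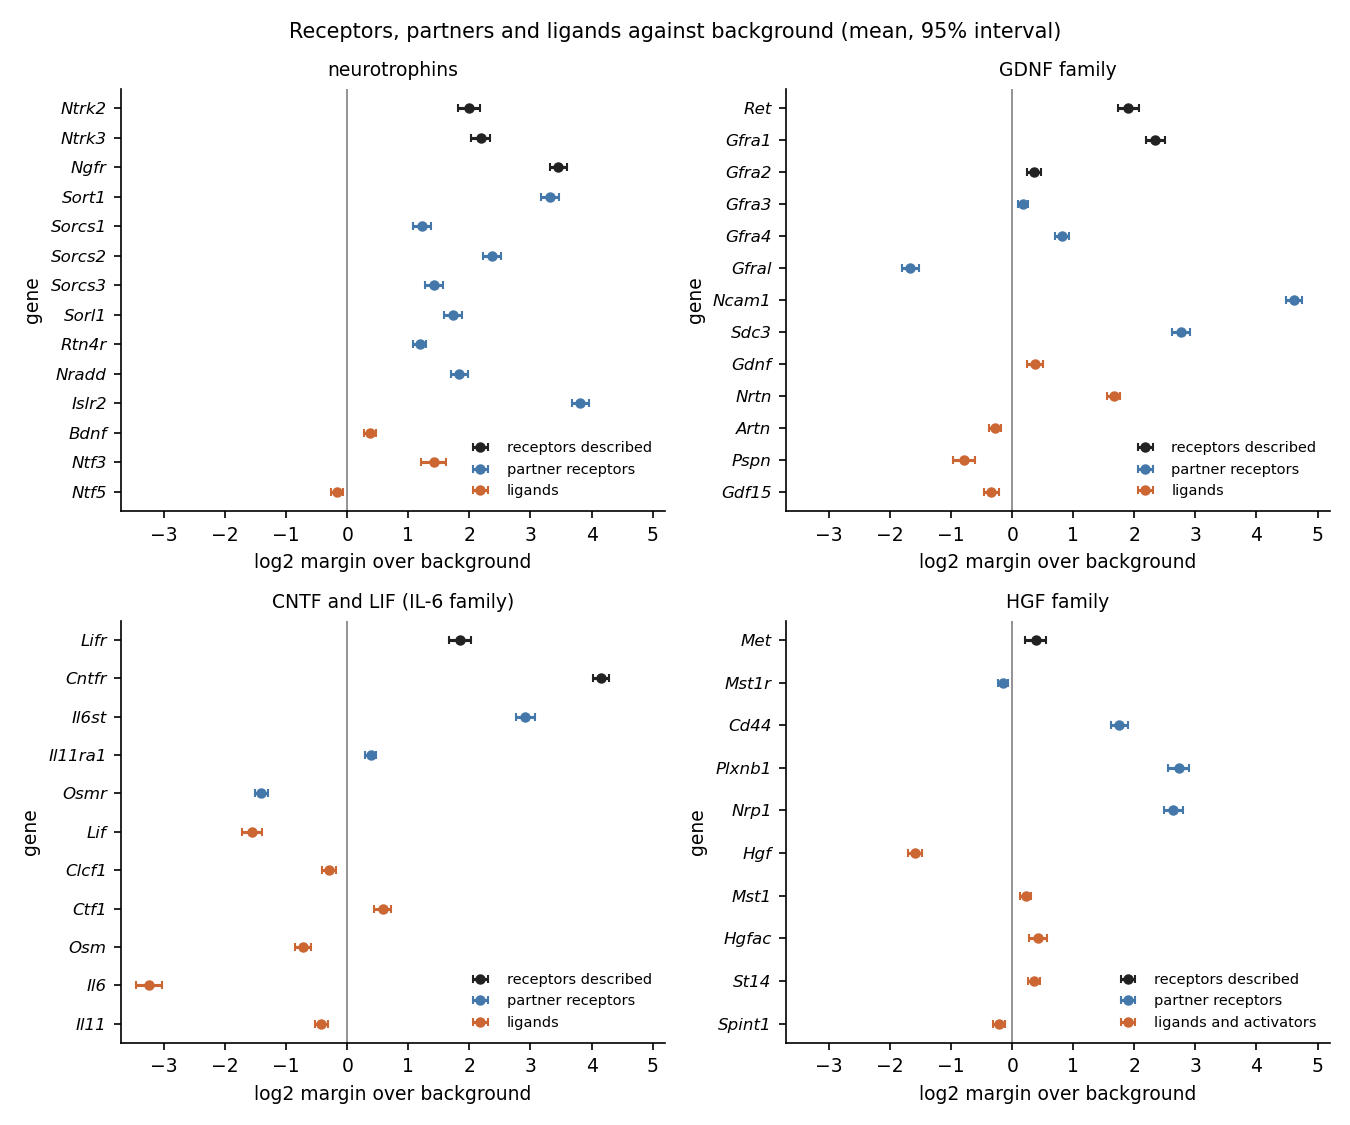
Margin over background on the log2 scale (horizontal axis, mean and 95% interval from limma, n = 6 arrays) for genes (vertical axis) of 4 ligand families, with the receptors described in black, partner receptors in blue and ligands, or ligands and activators, in orange. The vertical line marks background, and Hgf and Lif lie to its left while Met and Lifr, their receptors, lie to its right.

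Signalling genes downstream of these receptors were nearly all above background. Of 19 Trk adaptors 18 were above it, with a median margin of 2.23, and the highest were Crkl, Kidins220 and Crk at margins of 3.37, 3.16 and 2.90. The only one below background was Shc4, at -0.45. All 10 genes of p75 signalling were above background, led by Ngfrap1, Maged1 and Arhgdia at 4.78, 4.64 and 4.61. Of 6 matched Ret adaptors 5 were above background, with Dok5 highest at 3.10, and Grb7 was below at -0.15. In the JAK-STAT list 9 of 10 passed the test, with margins of 2.68 for Jak1, 1.90 for Jak2 and 1.76 for Stat3, while the margin of Ptpn6 was 0.033 (limma adjusted p = 0.449). Of 11 genes known to respond to trophic signals 9 passed, with Egr1 highest at 2.72, and the lowest was Etv4, which GDNF induces in motor pools of the limb, at -0.15 and so below background. These counts are read beside the 62.9% of all genes above background.

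Replicate error was then compared between the receptors. The SD ranged from 0.039 for Cntfr to 0.148 for Met, or a coefficient of variation of 2.70% to 10.5% on the linear scale. Since SD falls with level on these arrays, each SD was placed among the 500 genes closest in mean level. Ntrk2, Ret and Lifr were more variable than 92.0%, 89.4% and 87.2% of such genes, and Met than 71.8%. Ngfr and Gfra1 were near the middle at 54.2% and 54.4%, and Ntrk3, Cntfr and Gfra2 were lower at 36.6%, 22.6% and 14.0%. The median over the 9 receptors was 54.4%. Replicate 8 was the highest array for 6 of 9 receptors, all but Gfra2, Cntfr and Met. It was the highest for 27.5% of the genes above background by mean. Among those above the median level of these genes the share was 34.3%, but Gfra2 and Met lie below that level.

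**Figure D4:**
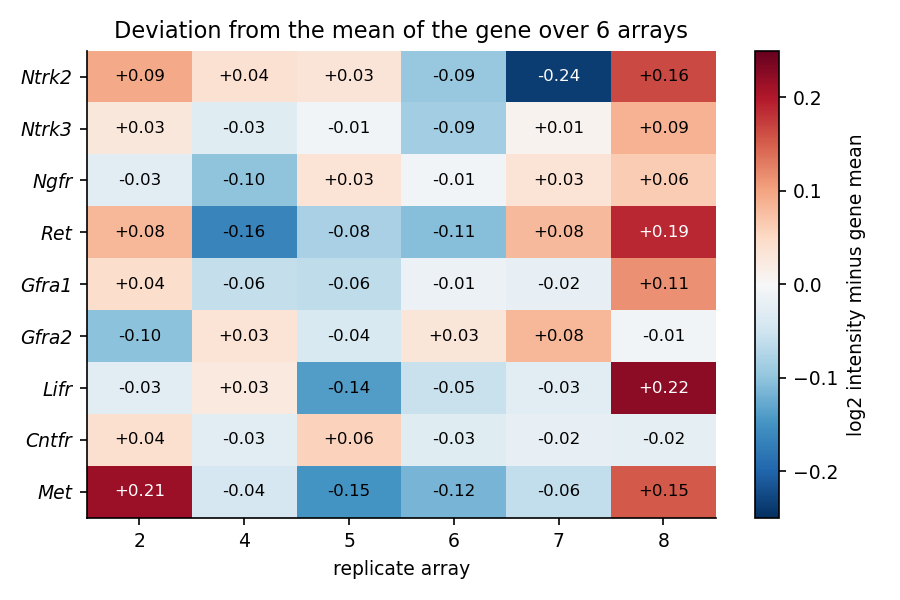
Deviation of each receptor gene (rows) in each of the 6 replicate arrays (columns) from its own mean, in log2 intensity, coloured from blue (lower) to red (higher). Replicate 8 is the highest array for 6 of the 9 genes, and the SD is lowest for Cntfr, at 0.039.

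The level of each receptor was also related to motor neuron content, read from Lhx3, Isl1, Mnx1 and Olig2, the genes by which the study corrected for batches of neurons. The study's corrected values are log2 ratios to a predicted level, whereas the values used here are linear intensities and so not in that corrected form. Whether any other batch correction preceded them is not given in the sources used here. The mean of these genes was lowest in replicate 7 (9.03) and highest in replicate 5 (9.23). The genes differed in pattern, as Mnx1 and Isl1 were highest in replicate 8, and Lhx3 and the progenitor marker Olig2 in replicate 5. The mean of the motor neuron marker list was highest in replicate 8 and lowest in replicate 4. This 4-gene mean is therefore only 1 reading of motor neuron content, and the marker list orders the arrays differently. Over the 6 arrays, Pearson's r ran from -0.27 for Gfra2 to 0.47 for Ngfr, with a lowest exact two-sided permutation p of 0.351, and Spearman's rho from -0.43 to 0.54, with a lowest exact p of 0.297. Adjusted over 12793 genes above background, 0 of 9 receptors were related to the 4-gene mean, and 0 of 9 had an unadjusted exact p under 0.05. Among all these genes 603, or 4.71%, had an unadjusted p under 0.05 and 0 passed adjustment, with 0.00139 the smallest p that the 720 pairings can give. Without replicates 5 and 8, the arrays farthest from the median, r ran from -0.92 for Ntrk3 to 0.17 for Ntrk2. Leaving out 1 array also moved r widely. For Gfra2 it was -0.97 without replicate 2, and for Lifr, at -0.016 over all arrays, it was 0.77 without replicate 5 and -0.86 without replicate 8. A relation of receptor level to this 4-gene mean was therefore not detectable with 6 arrays.

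Genes with the most similar pattern over the 6 arrays were listed by Pearson's r on log2 intensity, as a description. They were Crat and Nefl, the neurofilament light chain, for Ngfr (r = 0.993 and 0.983), Scn2a1, a sodium channel subunit, and Eapp for Ret (r = 0.996 and 0.991), and Snhg11 and Zfp654 for Gfra1 (r = 0.993 and 0.991). For Ntrk2 they were Zfpl1 and Sema4d (r = 0.993 and 0.989), for Ntrk3 Vps33a and Prkaa2 (r = 0.993 and 0.9895), for Lifr Ddx46 and 3830406C13Rik (r = 0.999 and 0.995) and for Cntfr H13 and Copa (r = 0.995 and 0.994). For Met they were Tmem19 and Tmeff1 (r = 0.994 and 0.992) and for Gfra2 Psmd13 and Arhgef18 (r = 0.983 and 0.975). With so few arrays, between 9 and 127 genes had an r over 0.95 with a given receptor, and the arrays share the differences between replicates described above.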

How the data were processed

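RNA was hybridized to 6 Affymetrix mouse exon arrays. The authors deposited linear intensities from Robust Multi-array Averaging (RMA) in the Aroma Affymetrix package, averaging the exons of each gene. The submitters' processing notes also name Affymetrix Expression Console. The study removed outlying arrays per batch of cells, and the labels do not say whether these arrays had been screened. The genome build of the annotation and which arrays were normalized together are not given in the sources used here. The table held 0 columns from other samples.

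Altered gene names (1201 of 19613) were restored, and 17541 names were symbols and 1814 synonyms in RefSeq (GRCm38.p6). No pseudocount was added before taking log2. Margins over the 95th percentile of olfactory receptor genes were fitted with limma 3.58.1 (intercept only, variance trend) in R 4.3.3, two-sided, over all genes, and called at an adjusted p of 0.05. Because this level is subtracted from every gene of an array, its spread enters every margin, and the interval covers the spread between arrays and not probe affinity. The call by mean alone took 65.2% of genes as above background, and the 9 receptors were among them. The limma step was run on simulated data, with noise drawn separately for each gene. Those data lacked the background level shared by all genes of an array, so they do not test the error of the margins. Alternatives were a vomeronasal background, the 99th percentile, other scalings, a pseudocount of 32, other tests and filters, and leaving out each array. Precision is limited by the number of arrays. The receptors and lists were chosen with earlier results of these data known. The rule for named genes took all 9 receptors, ligands and partners, the highest and lowest genes of the other lists, and the 2 genes most like each receptor. Hgfac, Scn10a and Chat, and the other single marker genes given, were named from the lists after their values were seen. List genes not matched by name were not analysed here, among them Cntf, Il6ra and Lingo1, and a few listed genes are not reported here.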

Additional observations from a re-analysis of the deposited data

Results flagged for a closer look

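Receptors, ligands, partners and the means of marker lists were searched for an array standing apart from the other 5. Of the 60 tested, 3 had one, and about 3 would by chance. None of the 9 receptors was among them. Hgf, below background in all arrays, was highest in replicate 5 at a log2 intensity of 6.13, against 5.79 to 5.92 in the others. Spint1, an inhibitor of the proteases that activate hepatocyte growth factor, was lowest in replicate 8 at 6.95, against 7.27 to 7.39. The mean of epithelium and endoderm markers was lowest in replicate 8 at 7.41, against 7.64 to 7.71. Replicate 8 also had the lowest background of the arrays, at 7.26. It was the lowest array as well for the sensory, neural crest, astroglia, pluripotent and mesenchyme marker means. The motor neuron, progenitor and blood marker means were lowest in other arrays. Whether the low values of Spint1 and of these markers are particular to them was not tested.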

How the results depend on the processing

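Of 126 margins recomputed for the 9 receptors under 14 alternatives, 124 kept their direction and their side of the threshold. Not all of these could change. Median centring cancels in a margin, and no variance trend, low genes left out and the sign-flip test reuse the main margins and could change only the p-value. The exceptions were Gfra2 and Met against the 99th percentile of olfactory receptor genes, where the margins were -0.52 and -0.50. The count of receptors above background was 7 under that alternative and 9 under the 14 others run for it, which were the vomeronasal background, median centring, quantile normalization, a pseudocount of 32, no variance trend, low genes left out, the exact sign-flip test, the call by mean alone and leaving out each array. Under the vomeronasal background, which was lower, 74.4% of all genes were called. All 9 receptors had an adjusted p of 0.0332 in the sign-flip test, the smallest that this test gave, so it does not rank them. The median percentile of the receptors' SD, 54.4 in the main setting, was 49.8 under quantile normalization and 67.2 under median centring. On leaving out an array it was 43.4 to 63.2 (43.4 without replicate 8). Its jackknife standard error was 16.1, which is computed from these left-out values and so cannot serve to judge their stability. The count of receptors related to motor neuron genes was 0 under all alternatives run, which says nothing of stability because so few arrays can hardly pass the adjustment, and 17 of 81 values of r changed sign. No paired analysis was possible because the labels give a single group. The signal of Gfra2 and Met over background limits what can be said of them.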

Other observations

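Among other receptor tyrosine kinases, 18 of 29 matched genes were above background, where 62.9% of all genes were, with a median margin of 0.92 on the log2 scale against 0.77 over all genes. Igf1r, the receptor of insulin-like growth factors, which also support motor neurons, had a log2 intensity of 11.56 ± 0.048 and a margin of 4.07 (SD, n = 6). Next came the fibroblast growth factor receptors Fgfr3 and Fgfr2, with margins of 3.31 and 2.84. The lowest were Ros1 at -1.82, the endothelial kinase Tek at -1.40 and Pdgfra, a kinase of oligodendrocyte precursors, at -1.10.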
